A study of Mus musculus with 6 samples.

Results

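The respiratory complex I to III genes encode the NADH, succinate and cytochrome bc1 enzymes of the mitochondrial electron transport chain, together with proteins that help to build complex I. Every gene whose symbol begins with Nduf or Uqcr was taken, and Sdha, Sdhb, Sdhc, Sdhd and Cyc1 were added, where a probe set named that gene alone. This gave 57 of the 18194 genes measured. They comprised 6 core subunits, 28 accessory subunits and 8 assembly factors of complex I, 4 subunits of complex II and 9 of complex III. Ndufa4 and Ndufa4l2 were kept apart from the complexes. Where several probe sets named a gene, as for 30 of the 57, the probe set with the highest mean over the 6 arrays gave its value.

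In all, 3 kinds of cultured mouse male germ line stem cell were profiled on Affymetrix arrays, with 2 arrays of each kind. The labels call them unipotent (SSC), intermediate (iSSC) and multipotent (mSSC), and all came from the testes of male ICR mice 3 to 5 days old. No allele is named for any of the kinds, and all were grown on feeder layers of mouse embryonic fibroblasts treated with mitomycin and collected by the shape of their colonies. Clumps from passages 0 to 1 and 9 to 10 entered the cultures, and the passage and medium behind each array are not given in the sources used here. Whether the arrays of a kind come from separate cultures is not stated either, so a p-value here describes the spread between these arrays, which may be technical. Values are log2 signals, differences are differences of group means ± SE, and a call means limma's moderated test at 0.05 after Benjamini-Hochberg adjustment across the 18194 genes.

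Complex I takes electrons from NADH and passes them to ubiquinone while it pumps protons across the inner mitochondrial membrane. Complex II, which is also an enzyme of the citric acid cycle, feeds electrons from succinate into the same ubiquinone pool, and complex III carries them from there to cytochrome c. Complex I is assembled from a core that holds the flavin and the iron-sulphur clusters, from many accessory subunits around it, and with the help of assembly factors that are absent from the finished enzyme. Mouse embryonic stem cells of the naive type are known to use both respiration and glycolysis, and primed pluripotent cells to lean on glycolysis.

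The promoters of many respiratory genes are known to carry sites for the transcription factors NRF1 and GABP. RefSeq promoter windows of the mouse assembly GRCm38.p6, from 250 bases before to 50 after the start of transcription, were matched to 47 of the 57 genes. The 49 windows of these genes were searched on both strands for fixed letters, each motif counted on its own. The NRF1 letters CGCATGCG, which read the same on both strands, stood in 5 of them (10.2%), against 1.87% of all 32851 windows and 2.88% of the 18110 windows of genes on the array. These 5 sites are shown with 10 bases on either side because they include that of Ndufaf5, called in mSSC against SSC, and that of Uqcrc1, whose kinds did not overlap but which was not called. Capitals mark the motif, and each line runs 5′ to 3′ along the strand of the gene.
Ndufaf5, chr2:140170653-140170680, plus strand: gtcccgttggCGCATGCGcctaatagaa
Uqcrc1, chr9:108936669-108936696, plus strand: ctccgctctgCGCATGCGcagcgcggct
Ndufaf4, chr4:24897961-24897988, plus strand: cagatgtctgCGCATGCGcctgtgcgga
Ndufa8, chr2:36049330-36049357, minus strand: tcgctggagaCGCATGCGcagatggtac
Uqcr11, chr10:80406809-80406836, minus strand: atcgccttcaCGCATGCGctatacgtct

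The GABP letters CCGGAAG, or CTTCCGG on the other strand, stood in 10 of the 49 windows (20.4%), against 8.86% of all windows and 13% of those of genes on the array. They are shown for Ndufs8, Sdhd and Ndufaf8, members that stand at the low or the high end of the differences described here.
Ndufs8, chr19:3912743-3912769, minus strand: taggctccgcCTTCCGGttgaaccgca
Sdhd, chr9:50603879-50603905, minus strand: cgtctcctgcCTTCCGGttcacgcttc
Ndufaf8, chr11:120098916-120098942, plus strand: gcgttcgactCCGGAAGaggcagggcc

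The YY1 letters AAGATGGC or GCCATCTT stood in 14.3% of the members' windows and 3.38% of those of genes on the array. The estrogen-related receptor letters TCAAGGTCA or TGACCTTGA were found in 1 member window. The SP1 letters GGGCGG or CCGCCC stood in 49% and 52.3%. Another gene started within 1000 bases in the opposite direction at 18 of the 49 member windows (36.7%), against 14.7% of the windows of genes on the array. Among these pairs, 52 bases separated the starts of Sdhd and Timm8b, and 19 bases those of Ndufs3 and Kbtbd4. The partner of Ndufaf5, Esf1, differed by -0.98 ± 0.88 between mSSC and SSC (limma adjusted p = 0.49). Zmat5, the partner of Uqcr10, differed by 0.58 ± 0.29 (adjusted p = 0.22).

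The signals of these genes were strong in all 3 kinds of cell. Of the 57 genes, 52 lay above the upper quartile of the probe sets, which was between 8.19 and 8.37, on every array, and so did 45 of the 47 structural subunits. The exceptions were Ndufa4l2, Ndufaf5, Ndufaf6, Ndufb1 and Ndufb4. Ndufb4 was the dimmest, at 4.74 and 4.61 in SSC, 4.64 and 4.37 in iSSC and 4.38 and 4.22 in mSSC, near the arrays' lower quartile. Other probe sets name Ndufb4 together with its copies Ndufb4b and Ndufb4c, lay between 11.6 and 12.8 and differed by 0.38 and 0.53 between mSSC and SSC, against -0.37 for the probe set used. Ndufa11 and Ndufs6 were named only together with other genes and are not among the 57.

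The markers of the cell states and of other cells moved between the groups. All 6 pluripotency markers (Nanog, Sox2, Esrrb, Tdgf1, Zfp42 and Dppa5a) rose in mSSC against SSC, and all 6 spermatogonial markers, among them Zbtb16, Gfra1 and Ret, fell. All 8 macrophage markers fell in mSSC against SSC, and 5 of the 8 in iSSC against SSC. The log2 of their summed signal was 15.53 and 15.07 in SSC, 14.07 and 13.29 in iSSC and 9.12 and 10.16 in mSSC, where 2 and 4 of the 8 lay below the array's lower quartile. Of 11 fibroblast markers 7 fell in mSSC against SSC, with summed signals of 15.75 to 16.40 in SSC, 13.98 to 14.43 in iSSC and 13.06 to 14.02 in mSSC. Of 7 Sertoli cell markers 6 fell, from 13.42 to 13.71 in SSC to 9.85 to 10.10 in mSSC. In such bulk RNA, fewer cells of a type and less RNA per cell cannot be told apart, and the part of these cells in the differences below was not tested.

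Between mSSC and SSC, 6 of the 57 genes rose and none fell. The call rate over all genes was 8.22% higher and 10.6% lower. Limma's unadjusted p was under 0.05 for 15 of the 57, against 6075 of the 18194 genes. The 6 genes were the complex I assembly factors Ndufaf3, Ndufaf5 and Ndufaf6, the complex III subunits Uqcr10 and Uqcrc2, and Ndufa4l2. The arrays of the 2 kinds did not overlap for 22 genes higher and 9 lower in mSSC, against 32.3% and 26.3% of all genes. The median difference of the 57 was 0.13, beside 0.08 over all genes. With the arrays centred on the median of the genes, that over all genes was 0.33, 11 of the 57 were called, and 2527 genes in all were higher and 1432 lower in place of 1495 and 1930.

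Between iSSC and SSC a single member, Ndufaf6, rose and none fell, where 0.225% of all genes were called higher and 1.87% lower. The unadjusted p was under 0.05 for 9 of the 57, against 3090 of the 18194 genes. For 26 genes the iSSC arrays lay above both SSC arrays and for 4 below, against 32.3% and 17.7% of all genes, and the median difference was 0.19, beside 0.10. Between mSSC and iSSC limma called 0 of the 57, while 7.53% of all genes were called higher and 9.6% lower. There 6 of the 57 had an unadjusted p under 0.05, against 5629 of the 18194 genes. The groups did not overlap for 17 genes higher and 19 lower in mSSC, against 29.6% and 33.2% of all genes, and the median difference was -0.03, beside -0.01. The comparisons share arrays, so their values stand side by side and are not independent of each other.

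**Figure D1:**
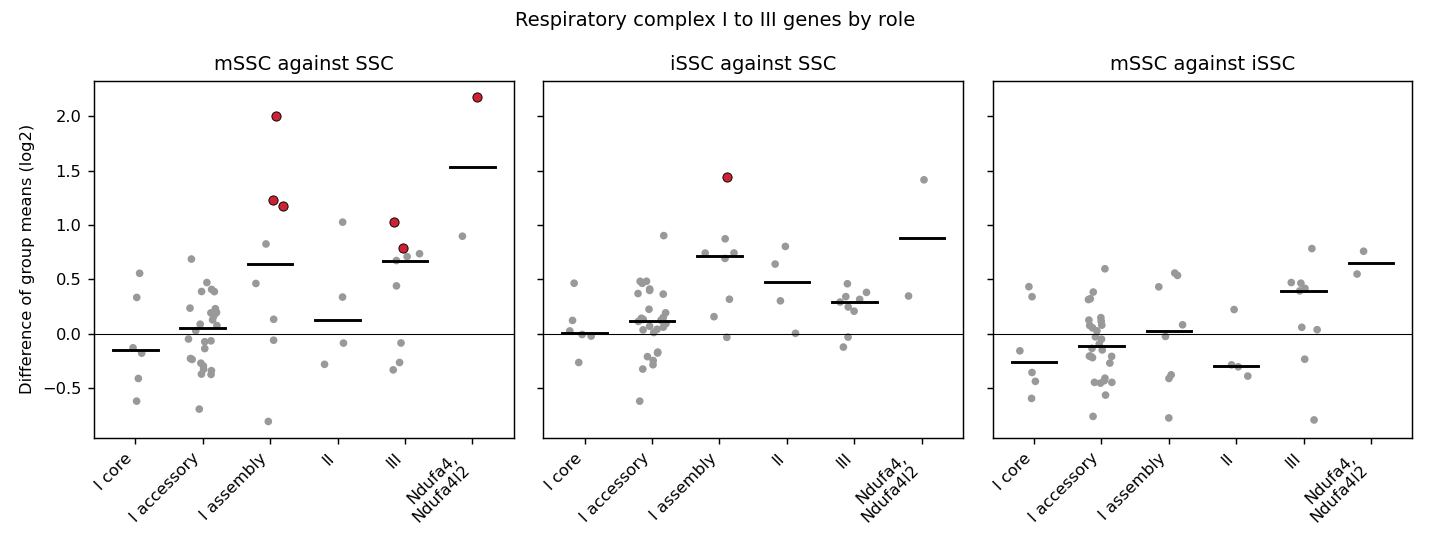
Difference of group means (log2, vertical axis) of each of the 57 genes, by role, in the 3 comparisons. Points are genes, bars are medians of a role, and red points are genes called by limma; the red points lie among the assembly factors, complex III and Ndufa4l2.

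The replicates were not equally alike. The first SSC array held the lowest of the 6 values for 25 of the 57 genes (43.9%), against 17.8% of all genes. It also had the largest excess of 3′ over 5′ signal at 4 of 5 controls, such as beta-actin with 0.89 on the log2 scale against 0.12 to 0.61 on the others. At the 18S control it had 2.23, below the first iSSC array at 2.36 and the first mSSC array at 2.42. At the 18S and beta-actin controls the first array of each kind had a larger excess than the second, and the part of this in the results was not tested. Over the members, the median SD of the SSC arrays was 0.20, that of the iSSC arrays 0.12 and that of the mSSC arrays 0.14.

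No subunit of complex I was called by limma in any of the 3 comparisons. Of the 34 measured, 3 had an unadjusted p under 0.05 between mSSC and SSC, 1 between iSSC and SSC and 2 between mSSC and iSSC. Over all 18194 genes these counts were 6075, 3090 and 5629. The median differences of the 34 were -0.01, 0.10 and -0.14. The 95% confidence interval of the difference lay within 1 log2 unit of 0 for 26 of the 34 between mSSC and SSC, for 26 between iSSC and SSC and for 24 between mSSC and iSSC. For the others the interval reached beyond that size, down to -1.50 and up to 1.69 at the widest.

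The core subunits differed among themselves in the order of the groups. Ndufs8, which carries iron-sulphur clusters of the branch that leads to ubiquinone, had log2 signals of 13.35 and 13.08 in SSC, 12.92 and 12.99 in iSSC and 12.72 and 12.47 in mSSC. Each kind lay below the one before it with no overlap, and the difference between mSSC and SSC was -0.62 ± 0.22 (limma adjusted p = 0.10). All 6 of its probe sets had a negative difference there, from -0.14 to -0.71. Between iSSC and SSC the dimmest of the 6 differed by 0.28, and on another the arrays of SSC and iSSC overlapped. Ndufs7, which carries the last cluster before ubiquinone, was 11.59 and 11.44 in SSC, 11.56 and 11.52 in iSSC and 11.27 and 10.94 in mSSC. Here SSC and iSSC overlapped and both mSSC arrays were lower, by -0.41 ± 0.22 against SSC (adjusted p = 0.25).

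Ndufv2, a subunit of the NADH-binding module, had its highest values in mSSC, with 12.09 and 12.33 in SSC, 12.37 and 12.29 in iSSC and 12.91 and 12.62 in mSSC. The mSSC arrays lay above all others, 0.56 ± 0.22 above SSC (limma adjusted p = 0.13). Ndufv1, its partner that binds flavin and NADH, peaked in iSSC, where it was 12.82 and 12.76, against 12.16 and 12.49 in SSC and 12.14 and 12.25 in mSSC. The mSSC arrays overlapped those of SSC and were -0.59 ± 0.22 from those of iSSC (adjusted p = 0.12). Ndufs1, the largest subunit of complex I, was 10.92 and 11.48 in SSC, 11.15 and 11.23 in iSSC and 11.63 and 11.44 in mSSC. Its SSC arrays spanned the iSSC values and reached the lower mSSC value, and the difference of mSSC from SSC was 0.33 ± 0.25 (adjusted p = 0.42). Ndufs3, a subunit of the ubiquinone-reducing module, was 11.56 in both SSC arrays, 11.46 and 11.61 in iSSC and 11.37 and 11.39 in mSSC. The whole range of Ndufs3 was small, and mSSC differed from SSC by -0.18 ± 0.20 (adjusted p = 0.58).

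**Figure D2:**
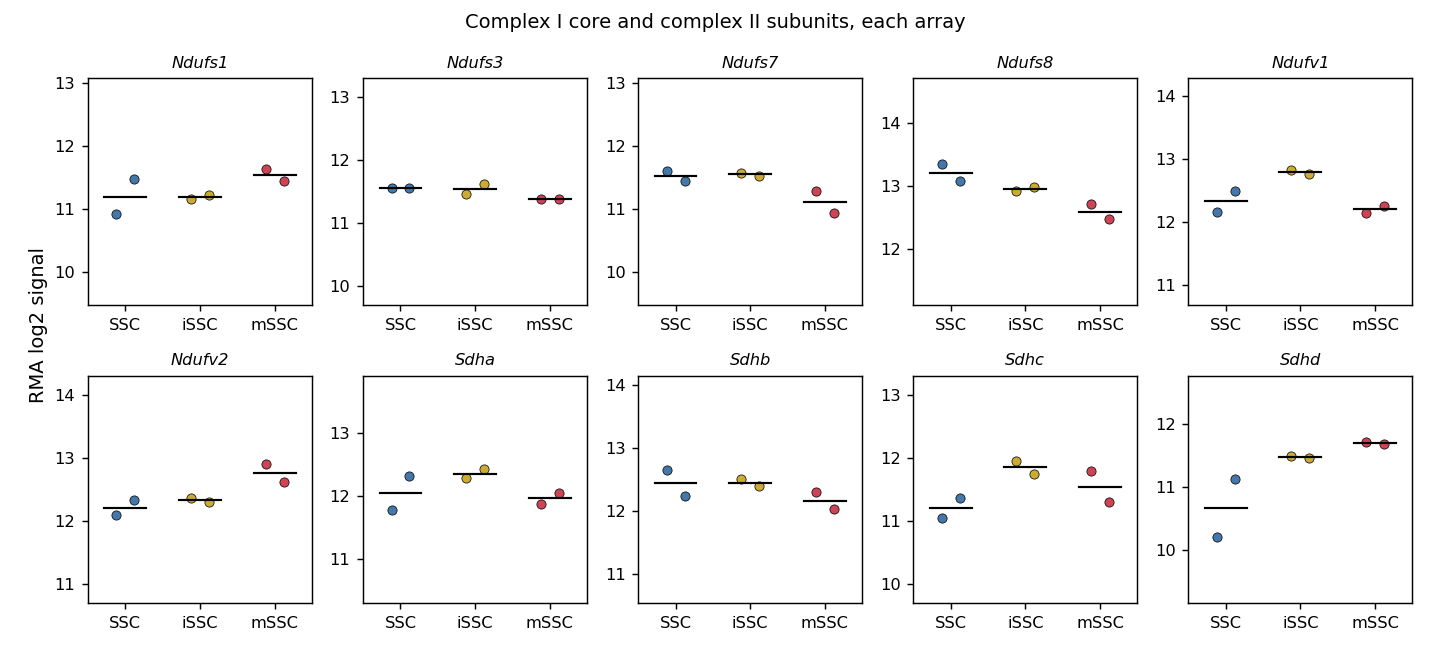
RMA log2 signal (vertical axis) of the 6 complex I core and 4 complex II subunits on each array, by kind of cell. Points are arrays, bars are group means, and every panel spans the same log2 range; Ndufs8 is highest in SSC and lowest in mSSC, Ndufv1 is highest in iSSC, and the first SSC array of Sdhd stands below all others at 10.21.

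The 28 accessory subunits, which surround and stabilise the core, had medians of 0.05, 0.12 and -0.11 in the 3 comparisons. Over all genes the medians were 0.08, 0.10 and -0.01. None of the 28 was called, where 8.22%, 0.225% and 7.53% of all genes were called higher and 10.6%, 1.87% and 9.6% lower. Ndufa13, also known as Grim19, was 13.37 and 12.96 in SSC, 12.96 and 12.88 in iSSC and 12.64 and 12.31 in mSSC. Its kinds did not overlap, though the lower SSC array was close to iSSC, and the difference of mSSC from SSC was -0.69 ± 0.24 (limma adjusted p = 0.10). Ndufb5, a subunit of the membrane arm, was 11.13 and 12.13 in SSC, 12.01 and 11.99 in iSSC and 12.29 and 12.35 in mSSC. Its first SSC array stood a full log2 unit below the second, and the difference of mSSC from SSC was 0.69 ± 0.34 (adjusted p = 0.22). Without the second SSC array it became 1.19, a value set by the first SSC array alone. The second SSC array, at 12.13, lay nearer to mSSC than the first.

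Against SSC, the accessory subunits at the ends of the iSSC range were Ndufb6 and Ndufb7, both of the membrane arm. Ndufb6 was 10.77 and 11.65 in SSC, 11.95 and 12.28 in iSSC and 11.74 and 11.63 in mSSC. The iSSC arrays were the highest, 0.90 ± 0.33 above SSC (limma adjusted p = 0.24). Ndufb7 was 12.47 and 11.90 in SSC, 11.27 and 11.87 in iSSC and 12.04 and 11.87 in mSSC, and iSSC differed from SSC by -0.62 ± 0.30 (adjusted p = 0.38). The iSSC arrays lay below SSC by a narrow margin, at 11.87 against 11.90 for the nearest pair. Ndufa1 and Ndufv3 followed at this end, at -0.32 ± 0.23 and -0.28 ± 0.33. Ndufa1 was 12.62 and 12.98 in SSC, 12.36 and 12.60 in iSSC and 12.54 and 12.53 in mSSC. Ndufv3, of the NADH-binding module, was 12.28 and 11.43 in SSC, 11.77 and 11.38 in iSSC and 11.84 and 11.60 in mSSC, with all groups overlapping.

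Between mSSC and iSSC the accessory subunits with the widest differences were Ndufb9, Ndufs5 and Ndufa10. Ndufb9 was 12.36 and 13.10 in SSC, 13.41 and 12.98 in iSSC and 12.48 and 12.39 in mSSC, a difference of -0.76 ± 0.31 between mSSC and iSSC (limma adjusted p = 0.15). Its SSC arrays reached from below mSSC into the iSSC range. Ndufs5 was 11.39 and 11.61 in SSC, 11.83 and 11.55 in iSSC and 11.50 and 10.75 in mSSC, and the lower mSSC array made most of its difference of -0.56 ± 0.30 (adjusted p = 0.27). Ndufa10 was 11.71 and 11.20 in SSC, 11.11 and 11.38 in iSSC and 11.78 and 11.91 in mSSC. It was highest in mSSC, 0.60 ± 0.25 above iSSC (adjusted p = 0.17).

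The assembly factors of complex I were the group with most calls. Of the 8, 3 rose in mSSC against SSC and 1 in iSSC against SSC, where 8.22% and 0.225% of all genes were called higher. The medians were 0.64, 0.72 and 0.03 in the 3 comparisons. Ndufaf6, which has a fold like that of phytoene synthases and is needed early in assembly, had log2 signals of 8.29 and 8.38 in SSC, 9.98 and 9.57 in iSSC and 10.52 and 10.15 in mSSC. The 3 kinds did not overlap, and the SSC arrays stood far below the rest. It rose 2.00 ± 0.25 from SSC to mSSC (4.01-fold, limma adjusted p = 0.0048) and 1.44 ± 0.25 from SSC to iSSC (2.72-fold, adjusted p = 0.048). The call in iSSC was lost in 13 of 17 other settings, among them leaving out any of the 6 arrays, where the adjusted p was 0.051 to 0.37.

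Ndufaf3, which acts with Ndufaf4 in building the arm that takes up ubiquinone, was 8.65 and 8.57 in SSC, 9.19 and 9.41 in iSSC and 9.78 and 9.89 in mSSC. The kinds were again apart at each step, and it rose 1.23 ± 0.21 from SSC to mSSC (2.35-fold, limma adjusted p = 0.012). Ndufaf5, which hydroxylates an arginine of the core subunit Ndufs7, was 8.40 and 8.31 in SSC, 9.15 and 9.04 in iSSC and 9.51 and 9.54 in mSSC. It showed the same order without overlap and rose 1.17 ± 0.20 (2.26-fold, adjusted p = 0.012). From SSC to iSSC the differences were 0.69 ± 0.21 for Ndufaf3 (adjusted p = 0.17) and 0.74 ± 0.20 for Ndufaf5 (adjusted p = 0.14). In mSSC against SSC the calls of Ndufaf3, Ndufaf5 and Ndufaf6 held in every other setting in which they had a value, except the test without moderated variances.

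Ndufaf8, the partner of Ndufaf5, had another order and was not called. It was 11.27 and 11.42 in SSC, 11.44 and 11.19 in iSSC and 10.77 and 10.31 in mSSC. Both mSSC arrays were below all others, by -0.81 ± 0.25 against SSC (limma adjusted p = 0.069), but a second probe set of Ndufaf8 differed by 0.10. Ndufaf7, a methyltransferase needed for complex I assembly, was 8.65 and 9.16 in SSC, 9.89 and 9.40 in iSSC and 9.69 and 9.77 in mSSC. The mSSC and iSSC arrays overlapped and stood above SSC, by 0.83 ± 0.28 in mSSC (adjusted p = 0.090) and 0.74 ± 0.28 in iSSC (adjusted p = 0.25).

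Ndufaf1, which works with Ecsit and Acad9 on the membrane arm, was 9.10 and 9.87 in SSC, 10.38 and 10.33 in iSSC and 10.13 and 9.77 in mSSC. It was highest in iSSC, 0.87 ± 0.31 above SSC (limma adjusted p = 0.23), and mSSC overlapped SSC. Ndufaf2, a relative of the subunit Ndufa12, ranged from 8.82 to 9.13, and Ndufaf4 from 9.65 to 10.47, and in both of them mSSC and SSC overlapped. A dimmer probe set of Ndufaf4 differed by 0.90 between mSSC and SSC, against -0.06 for the main one.

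**Figure D3:**
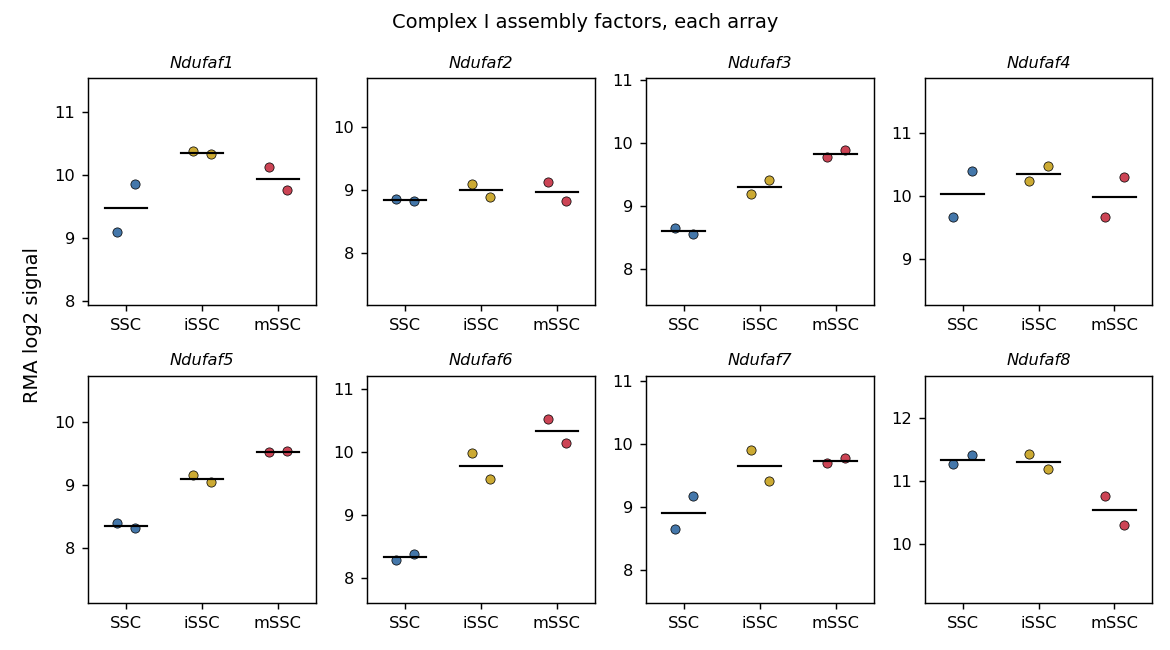
RMA log2 signal (vertical axis) of the 8 complex I assembly factors on each array, by kind of cell. Points are arrays, bars are group means, and every panel spans the same log2 range; Ndufaf3, Ndufaf5 and Ndufaf6 are lowest in SSC and highest in mSSC, and Ndufaf8 is lowest in mSSC.

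None of the 4 complex II subunits was called, and their medians were 0.13, 0.47 and -0.29 in the 3 comparisons. Limma's unadjusted p was under 0.05 for 1, 2 and 0 of them, against 6075, 3090 and 5629 of the 18194 genes. Sdhd, a membrane anchor that binds ubiquinone, was 10.21 and 11.13 in SSC, 11.50 and 11.45 in iSSC and 11.71 and 11.68 in mSSC. The kinds did not overlap, but the SSC arrays were nearly a log2 unit apart, and the difference of mSSC from SSC was 1.03 ± 0.32 (adjusted p = 0.075). Without the second SSC array it became 1.49, a value set by the first SSC array alone. The second SSC array, at 11.13, lay nearer to mSSC than the first, at 10.21. Sdhc, the other anchor, was 11.05 and 11.37 in SSC, 11.96 and 11.75 in iSSC and 11.80 and 11.30 in mSSC. It was highest in iSSC, 0.64 ± 0.26 above SSC (adjusted p = 0.29), while mSSC reached down into the SSC range.

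On the probe sets used, the catalytic subunits of complex II overlapped between mSSC and SSC. Sdha, the flavoprotein that oxidises succinate, was 11.78 and 12.32 in SSC, 12.28 and 12.42 in iSSC and 11.88 and 12.05 in mSSC. Its mSSC values lay between those of the SSC arrays, a difference of -0.09 ± 0.25 (limma adjusted p = 0.85). The other probe sets of Sdha, all dimmer, disagreed in sign, at 0.58, -1.39 and 0.30. Sdhb, the iron-sulphur subunit, was 12.65 and 12.25 in SSC, 12.50 and 12.40 in iSSC and 12.30 and 12.04 in mSSC, and mSSC differed from SSC by -0.28 ± 0.24 (adjusted p = 0.46). The 95% interval of that difference ran from -0.85 to 0.29.

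Of the 9 complex III subunits 2 rose in mSSC against SSC, where 8.22% of all genes were called higher. For 6 the mSSC arrays lay wholly above SSC and for 1 wholly below, against 32.3% and 26.3% of all genes. The medians were 0.67, 0.29 and 0.39 in the 3 comparisons. Uqcrc2, a core protein of the matrix side, had log2 signals of 11.45 and 11.62 in SSC, 11.83 and 11.87 in iSSC and 12.35 and 12.29 in mSSC. The kinds were apart at each step, and it rose 0.79 ± 0.20 (1.73-fold, limma adjusted p = 0.040). A second probe set differed by only 0.09, and the call was lost in 10 of 16 other settings, including the omission of any array. Uqcr10, a small accessory subunit, was 11.38 and 11.10 in SSC, 11.54 and 11.43 in iSSC and 12.40 and 12.14 in mSSC. The mSSC arrays stood above the rest, and it rose 1.03 ± 0.22 (2.04-fold, adjusted p = 0.025). Its 3 probe sets did not run together: the other 2, both dimmer, differed by 0.35 and -1.06. The call was lost in 7 of 17 other settings, among them averaged probe sets and the omission of the second SSC array, either iSSC array or the first mSSC array, and its sign reversed in 1.

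Uqcrc1, the second core protein, was 11.96 and 11.73 in SSC, 12.10 and 12.17 in iSSC and 12.47 and 12.64 in mSSC. Its kinds did not overlap, and mSSC was 0.71 ± 0.21 above SSC (limma adjusted p = 0.062). Uqcrfs1, the Rieske iron-sulphur protein, was 10.77 and 11.12 in SSC, 11.24 and 11.32 in iSSC and 11.87 and 11.49 in mSSC, also without overlap, a difference of 0.74 ± 0.24 (adjusted p = 0.085). Uqcrq, which binds near cytochrome b, was 11.35 and 11.64 in SSC, 11.78 and 11.62 in iSSC and 12.17 and 12.16 in mSSC. Its SSC and iSSC arrays overlapped, and mSSC was 0.67 ± 0.21 above SSC (adjusted p = 0.077). Cyc1, the cytochrome c1 that hands electrons to cytochrome c, was 12.30 and 12.85 in SSC, 13.02 and 12.89 in iSSC and 12.95 and 13.08 in mSSC, and mSSC and iSSC overlapped above SSC. The difference of mSSC from SSC was 0.44 ± 0.25 (adjusted p = 0.28).

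The remaining complex III subunits had another order. Uqcrh, the hinge protein, was 12.69 and 12.86 in SSC, 13.41 and 13.06 in iSSC and 12.82 and 12.06 in mSSC. It was highest in iSSC, and mSSC differed from iSSC by -0.79 ± 0.31 (limma adjusted p = 0.14). Uqcr11 was 11.77 and 11.41 in mSSC, below the SSC arrays at 11.78 and 11.93, the upper pair almost touching (-0.26 ± 0.22, adjusted p = 0.46). Uqcrb, a small subunit of the matrix side, spanned 13.91 to 14.25 over all 6 arrays, with every kind overlapping.

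**Figure D4:**
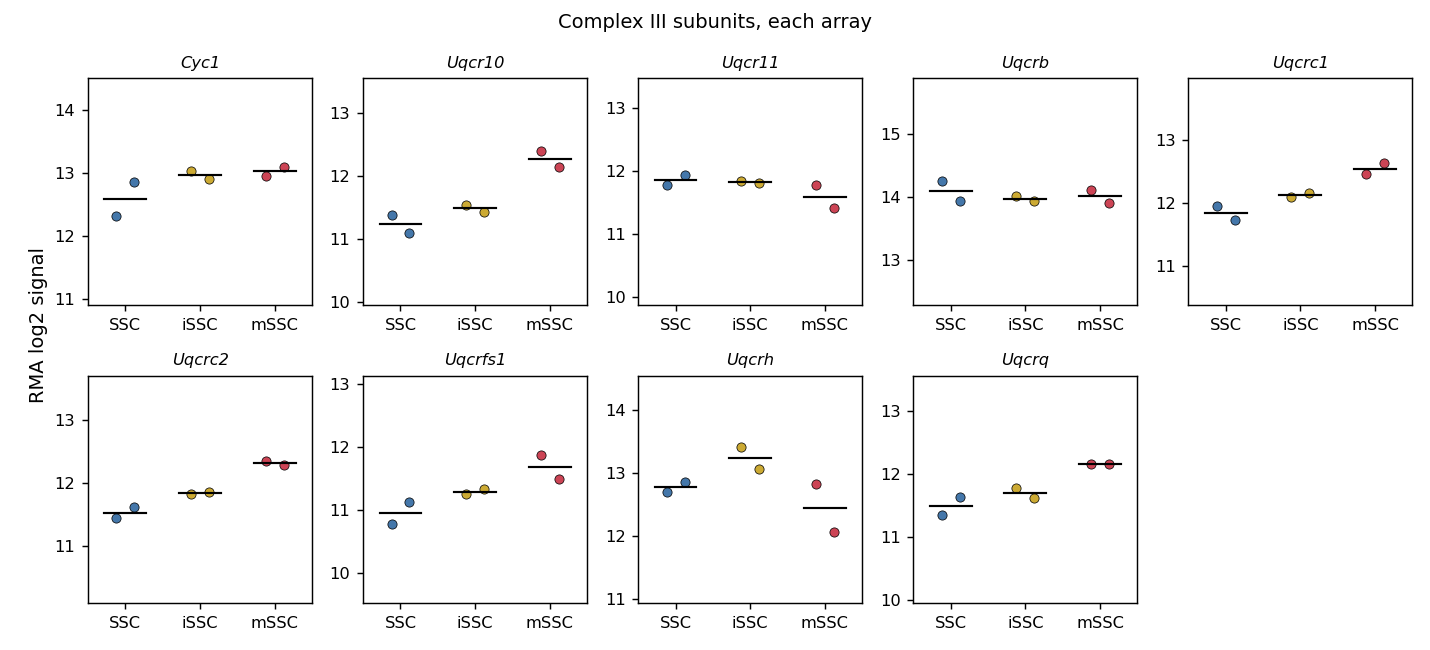
RMA log2 signal (vertical axis) of the 9 complex III subunits on each array, by kind of cell. Points are arrays, bars are group means, and every panel spans the same log2 range; Uqcr10, Uqcrc1, Uqcrc2 and Uqcrfs1 are lowest in SSC and highest in mSSC without overlap, Uqcrh is highest in iSSC and Uqcrb is level.

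An order from SSC over iSSC to mSSC without overlap between arrays, a pattern chosen after the values were seen, was found upward in 9 of the 57 genes and downward in 2, against 7.11% and 4.75% of all genes. The 9 were Ndufaf3, Ndufaf5, Ndufaf6, Ndufb8, Sdhd, Uqcr10, Uqcrc1, Uqcrc2 and Uqcrfs1. The 2 were Ndufa13 and Ndufs8. The steps could be small: Ndufb8 ranged only from 11.89 to 12.17. On another, dimmer probe set the direction reversed for Uqcrc2 and Uqcr10 between mSSC and iSSC, at -0.20 and -1.73. For Ndufb8 it reversed between mSSC and SSC, at -0.75, and for Ndufs8 between iSSC and SSC, at 0.28. The second probe set of Sdhd kept the direction, but its iSSC and mSSC arrays overlapped.

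Ndufa4l2, a relative of Ndufa4 that is induced by low oxygen and known to lower complex I activity, had the widest difference of all members. Its log2 signals were 7.93 and 6.86 in SSC, 9.08 and 8.54 in iSSC and 10.33 and 8.81 in mSSC. Both SSC arrays were the lowest, iSSC and mSSC overlapped, and the arrays of SSC and of mSSC were each more than a log2 unit apart. It rose 2.18 ± 0.57 between SSC and mSSC (4.52-fold, limma adjusted p = 0.045), a call lost in 8 of 17 other settings, including the omission of either SSC array, either iSSC array or the first mSSC array. Ndufa4, once counted with complex I and now known as a subunit of cytochrome c oxidase, was 10.59 and 11.97 in SSC, 11.36 and 11.89 in iSSC and 12.01 and 12.35 in mSSC. Its mSSC arrays stood above the others, but the first SSC array was far below the second, and the difference was 0.90 ± 0.47 (adjusted p = 0.24). Without the second SSC array it was 1.59, a value set by the first SSC array alone. The second SSC array, at 11.97, lay nearer to mSSC than the first.

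Probe sets of the same gene often disagreed. Of the 30 members with several, the sign of the difference was not the same in all of them for 12 between mSSC and SSC, 15 between iSSC and SSC and 13 between mSSC and iSSC. Ndufaf3, Ndufaf5, Ndufaf6 and Ndufa4l2 each had 1 probe set, so no second reading of them was available on these arrays.

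Assembly factors outside the Nduf and Uqcr names were read from a list of 17. In mSSC against SSC 4 rose and none fell, with a median of 0.15, where 8.22% of all genes were called higher and 10.6% lower. Of the 17, 6 had a negative difference. Both mSSC arrays lay above both SSC arrays for 8 of the 17 and below for 5, against 32.3% and 26.3% of all genes. Nubpl, which delivers iron-sulphur clusters to complex I, was 7.65 and 9.04 in SSC, 9.77 and 9.65 in iSSC and 10.97 and 10.85 in mSSC. The kinds did not overlap, and it rose 2.56 ± 0.44 (limma adjusted p = 0.012). Uqcc1, needed to make cytochrome b of complex III, was 7.39 and 8.07 in SSC, 8.41 and 8.56 in iSSC and 9.29 and 9.32 in mSSC, again apart at each step, and rose 1.57 ± 0.27 (adjusted p = 0.013). Foxred1, an assembly factor of complex I, was 7.74 and 8.10 in SSC, 8.46 and 8.29 in iSSC and 9.22 and 8.86 in mSSC and rose 1.12 ± 0.24 (adjusted p = 0.025). Sdhaf3, which helps to mature Sdhb, rose 1.32 ± 0.32 (adjusted p = 0.036), although its second probe set differed by -0.03.

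Together with the 8 Nduf factors, 7 of 25 assembly factors rose and none fell in mSSC against SSC, with a median of 0.22. They moved both ways, with 17 differences above 0 and 8 below. The arrays of the 2 kinds did not overlap for 12 factors higher and 6 lower in mSSC, against 32.3% and 26.3% of all genes. Of the 47 structural subunits 2 rose, with a median of 0.08, beside 0.08 over all genes. In this comparison 8.22% of all genes were called higher and 10.6% lower. Between mSSC and iSSC limma called 0 of the 25 higher, while 7.53% of all genes were called higher and 9.6% lower. The unadjusted p was under 0.05 in either direction for 11 of the 25, against 5629 of the 18194 genes. Ttc19, a complex III factor, fell by 1.43 and Timmdc1, a complex I factor, fell by 1.34 (limma adjusted p = 0.018 and 0.046).

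The enzymes that feed or follow these complexes moved in part. For the lists from here on, the share of all genes called in mSSC against SSC was 8.22% higher and 10.6% lower. Of 17 genes for ubiquinone synthesis and for other enzymes that reduce ubiquinone, 3 rose in mSSC against SSC, and all 3 belong to the latter. Dhodh, the pyrimidine synthesis enzyme that passes electrons to ubiquinone, was 7.48 and 7.52 in SSC, 8.33 and 8.22 in iSSC and 10.14 and 9.85 in mSSC. It rose 2.49 ± 0.21 (limma adjusted p = 0.0016), with mSSC far above both other kinds. Gpd2, the glycerol phosphate dehydrogenase of the inner membrane, was 8.95 and 8.47 in SSC, 8.80 and 8.69 in iSSC and 10.997 and 11.51 in mSSC. It rose 2.54 ± 0.28 (adjusted p = 0.0032), and SSC and iSSC overlapped. Prodh, the proline dehydrogenase, rose 1.91 ± 0.29 (adjusted p = 0.0089) from a low signal of 5.50 and 5.88 in SSC to 7.29 and 7.92 in mSSC. The same 3 genes rose in mSSC against iSSC, where Sqor, the sulphide oxidising enzyme, fell by 3.70 (adjusted p = 0.011).

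Of 12 citric acid cycle genes 3 rose in mSSC against SSC, Idh3a by 1.2 ± 0.24, Idh3g by 1.34 ± 0.28 and Suclg2 by 1.07 ± 0.24 (limma adjusted p = 0.021, 0.022 and 0.027). The median of the 12 was 0.59. Of 9 genes for pyruvate entry 2 rose, the pyruvate dehydrogenase subunits Pdha1 by 1.22 ± 0.30 and Pdhb by 1.28 ± 0.30 (adjusted p = 0.038 and 0.033). Glycolysis, read from 16 genes, had 8 called higher and a median of 1.31. Its smallest p-values belonged to the glucose transporter Slc2a3 at 4.23 ± 0.41, Pfkm at 1.77 ± 0.27, Hk2 at 1.34 ± 0.21 and Pfkp at 2.79 ± 0.49 (adjusted p = 0.0024, 0.0085, 0.0097 and 0.013). Slc2a3, Pfkm and Hk2 also rose in mSSC against iSSC.

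Downstream, of 17 complex IV genes 1 rose and 1 fell in mSSC against SSC, with a median of 0.31. Cox7a1, a heart and muscle form of a small subunit, was 7.74 and 7.45 in SSC, 8.69 and 8.18 in iSSC and 10.02 and 9.12 in mSSC and rose 1.97 ± 0.36 (limma adjusted p = 0.014). Cox7b2, known from the testis, was 10.01 and 10.60 in SSC, 10.63 and 10.10 in iSSC and 8.69 and 7.79 in mSSC and fell by 2.07 (adjusted p = 0.016). The SSC and iSSC arrays of Cox7b2 overlapped, and both mSSC arrays were lower, beside the fall of the spermatogonial markers. Of 18 ATP synthase genes 1 rose, Atp5g2 at 0.86 ± 0.23 (adjusted p = 0.049), and the 2 cytochrome c genes were not called. Among 13 regulators of mitochondrial genes, Tfb1m, which methylates mitochondrial ribosomal RNA, rose 1.18 ± 0.23 (adjusted p = 0.017) and Nrf1 rose 1.14 ± 0.30 (adjusted p = 0.046), but 2 of the 4 probe sets of Nrf1 had the opposite sign. Pprc1, a coactivator of the PGC-1 family, fell by 1.01 (adjusted p = 0.042). Between iSSC and SSC limma called 0 genes of these 9 lists, with an unadjusted p under 0.05 for 0 to 5 genes of a list. Over all 18194 genes that count was 3090.

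**Figure D5:**
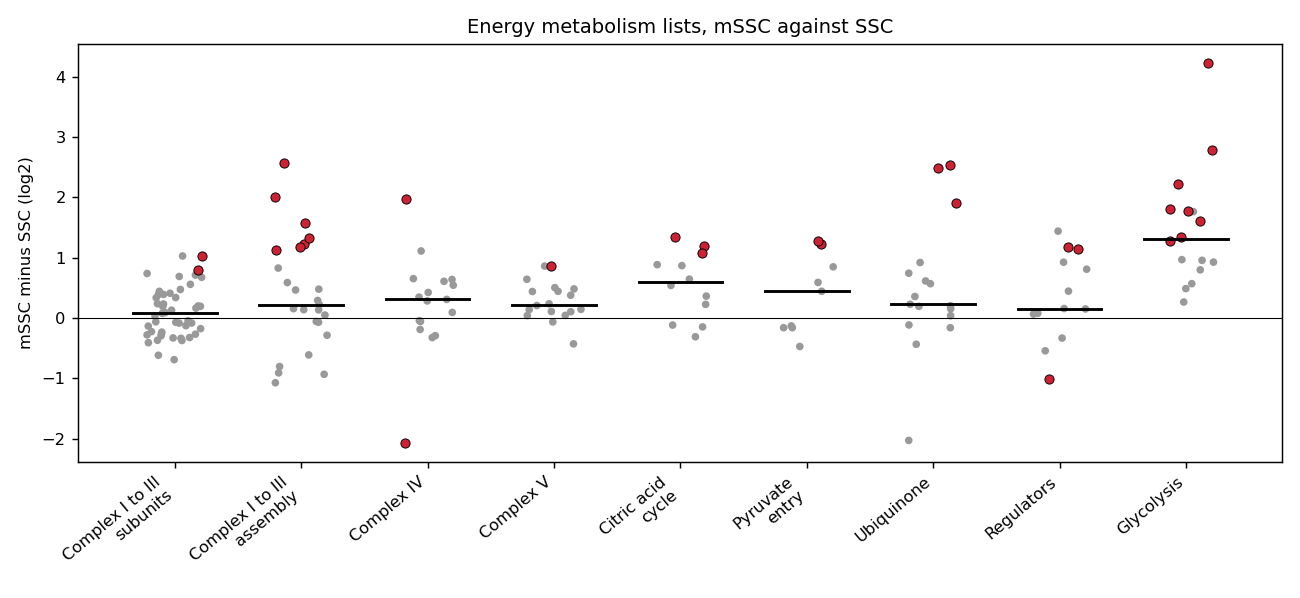
Difference of mSSC from SSC (log2, vertical axis) of each gene, for the structural subunits and assembly factors of complexes I to III and for other lists of energy metabolism. Points are genes, bars are list medians, and red points are genes called by limma; the median is 0.08 for the subunits and 1.31 for glycolysis.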

How the data were processed

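Total RNA for the 6 arrays, 2 for each kind of cell, came from Trizol extraction, and 10 µg went into amplification and biotin labelling, per the labels. The deposited values are log2 signals that the authors made with RMA, per the submitters' processing notes; for RMA no version is given in the sources used here. It corrects background, quantile-normalises the arrays and summarises each probe set. Array medians were 5.83 to 5.93, and neither a further normalisation nor a filter on low signals was applied. Of 45101 probe sets 34958 named 1 gene, 932 named several and 9211 had no name here. The RefSeq gene table of GRCm38.p6 matched 34754 and changed 0 symbols.

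The fit was limma 3.58.1 in R 4.3.3, with group means over all 6 arrays, moderated variances and 2-sided tests. On simulated data for mSSC against SSC, 200 of the 18194 genes were given a change. There 86.1% of 4-fold and 4% of 2-fold changes were found, with 7.21% of calls false. The members, gene lists and tests were chosen with earlier results of these data known. Each array's value is given for members called in any comparison, for the catalytic core of each complex and for the 5 highest and 5 lowest differences of each comparison, and further members were chosen after their values were seen. Of the other lists the called genes are named, or the 4 with the smallest p, mainly for mSSC against SSC. Alternatives were a replicate block, other scalings, variance models and choices of probe set, and the omission of each array, in which a group left with 1 array borrows the spread of the others.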

Additional observations from a re-analysis of the deposited data

How the results depend on the processing

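With 2 arrays a group, missing calls say little. The simulation held 200 changed genes, while 1495 were called higher and 1930 lower in mSSC against SSC. The adjustment was therefore stricter in the simulation, and its rate for 2-fold changes does not carry over to these data. Members called in mSSC against SSC (6) numbered 3 on the 4 arrays compared, 0 without moderated variances and 2 among structural subunits only. They numbered 11 with arrays centred on the gene median, an alternative added after seeing the data. Leaving out the second SSC array took the calls from Ndufa4l2, Uqcr10 and Uqcrc2 and gave calls to Ndufa4, Ndufb5 and Sdhd. Those differences rest on the first SSC array alone. With the replicate block the members called stayed 6, the same genes. The single call in iSSC against SSC went to 0 under the replicate block, gene centring, averaged probe sets, the 4 arrays, trend and robust variances, no moderation, a minimum change of 1.2-fold, structural subunits only, and without any array (0 to 0). The 0 calls in mSSC against iSSC became 1 under the replicate block, gene centring, the 4 arrays, trend and robust variances, and without s, x and a probe sets; leaving out an array gave 0 to 1. Over all genes, deviations of same-numbered arrays correlated at 0.12 (SSC, iSSC), 0.068 (SSC, mSSC) and 0.17 (iSSC, mSSC), and over the 57 members at 0.28, 0.45 and 0.52. The labels do not say that a number marks a shared batch, so the replicate block stayed an alternative; under it Uqcr10 in mSSC against iSSC was called (limma adjusted p = 0.049) and Ndufaf6 in iSSC against SSC was not (adjusted p = 0.062). The median difference in mSSC against SSC (0.13) was 0.20 centred on all probe sets, 0.39 on genes and 0.076 for structural subunits (0.071 to 0.23 leaving out an array). In iSSC against SSC (0.19) it was 0.15 after quantile normalisation, 0.26 and 0.27 under the 2 centrings, 0.15 with probe sets averaged, 0.27 without s, x and a probe sets and 0.13 for structural subunits (0.11 to 0.25). In mSSC against iSSC (-0.03) it was 0.16 on gene centring, -0.15 without s, x and a probe sets and -0.094 for structural subunits (-0.13 to 0.054). Gene centring turned the complex I core median in mSSC against SSC from -0.15 to 0.10, while that over all genes went from 0.08 to 0.33. The accessory median in mSSC against iSSC went from -0.11 to 0.07, while that over all genes went from -0.01 to 0.18. Both role medians thus stayed below that of all genes. Quantile normalisation turned the core median in iSSC against SSC from 0.01 to -0.07, and that over all genes went from 0.10 to 0.06. Without s, x and a probe sets another probe set stood for Uqcr10, which reversed to -1.06 against SSC (limma adjusted p = 0.046) and -1.73 against iSSC (adjusted p = 0.011). Of 2868 member values, 2808 kept their side of the threshold, 41 lost and 17 gained a call. Most of these values belonged to members without a call in the main fit, which had none to lose. Only the 6 genes called in mSSC against SSC and Ndufaf6 in iSSC against SSC could lose a call. The share kept therefore says little about the calls. Over all genes, iSSC against SSC (41 higher, 340 lower) had 0 calls without the first SSC array or either iSSC array, and mSSC against SSC (1495 and 1930) had 6 and 8 without moderation and 2527 and 1432 on gene centring.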
